A study of Mus musculus with 12 samples.

Results

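Methylation of lysine 9 of histone H3 (H3K9) marks silent chromatin, and in the mouse it is written by a small set of SET-domain enzymes that divide the genome between them. Suv39h1 and Suv39h2 place trimethylation at the repeats around centromeres, and the partners Ehmt1 (GLP) and Ehmt2 (G9a) place mono- and dimethylation in gene-rich chromatin. Setdb1 trimethylates H3K9 at endogenous retroviruses, to which Trim28 and zinc finger proteins bring it, while Setdb2 is its smaller relative and Prdm2 (RIZ1) carries the related PR domain. In embryonic stem cells loss of Setdb1 is known to release retroviral elements, and loss of Ehmt2 to release germline genes.

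The 7 genes for these enzymes, Suv39h1, Suv39h2, Ehmt1, Ehmt2, Setdb1, Setdb2 and Prdm2, were chosen by symbol, and all 7 were found among the 23354 genes that the 12 libraries have in common. The libraries are mRNA of J1 mouse embryonic stem cells kept with serum and leukemia inhibitory factor on inactivated embryonic fibroblasts, with 2 libraries in each of 6 groups of stable lines. The histone lines overexpressed H3.1K36M or H3.1K9M, in which methionine stands in for the lysine that carries the mark, against H3.1WT, the wild-type histone. The hairpin lines carried shSuv39h1 or shSuv39h2, against shNC, taken here as the control hairpin. All cells shared the J1 background and the feeder culture. The transgene promoter, the hairpin sequences and the clonal or pooled origin of a line are details the sources used here do not give. They also do not say whether libraries of a group came from separate cultures, so p-values reflect library-to-library spread that may be technical. H3K9 methylation itself was not measured here.

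Values are FPKM, fragments scaled by transcript length and by the fragments of the library, as deposited, so that levels can be set side by side between genes. All 10 embryonic stem cell markers examined reached 1 FPKM in all 12 libraries, with Pou5f1 between 627 and 1007 FPKM. Of 24 fibroblast feeder markers 22 or 23 also reached 1 FPKM in each library, and Lum, which never exceeded 0.308 FPKM, was listed at 0 in 1 of them. The libraries of H3.1K9M and of shNC lay farther from each other than those of other groups, with an SD of the log2 difference across genes of 0.41 and 0.345, against 0.223 to 0.26 elsewhere. Steps between low values put 1 FPKM of a 1 kb transcript at roughly 20.7 to 27.5 fragments, depending on the library. At that depth Suv39h2 rested on roughly 175 to 768 fragments per library, Setdb2 on roughly 240 to 380 and Ehmt2, the highest, on roughly 4091 to 7309.

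The upstream regions of Suv39h1, Suv39h2 and Ehmt2 are shown because these were the members that passed the test against a control. They run 5′ to 3′ on the gene's strand and come from RefSeq (GRCm38.p6), with bases inside annotated exons left out. RefSeq held a promoter for 6 of the 7 genes. Capitals mark matches, on either strand, to the CCAAT box, to the GC box GGGCGG, to the cyclic AMP response element TGACGTCA and to the TATA box, searched as TATAAA. None of the matches shown overlap.
Suv39h1, chrX:8074761-8075010, minus strand: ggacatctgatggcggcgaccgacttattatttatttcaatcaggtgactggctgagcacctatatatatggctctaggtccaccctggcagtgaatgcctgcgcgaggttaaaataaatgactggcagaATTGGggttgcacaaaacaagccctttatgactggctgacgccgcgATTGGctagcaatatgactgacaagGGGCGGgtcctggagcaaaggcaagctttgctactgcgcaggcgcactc
Suv39h2, chr2:3475032-3475236, minus strand: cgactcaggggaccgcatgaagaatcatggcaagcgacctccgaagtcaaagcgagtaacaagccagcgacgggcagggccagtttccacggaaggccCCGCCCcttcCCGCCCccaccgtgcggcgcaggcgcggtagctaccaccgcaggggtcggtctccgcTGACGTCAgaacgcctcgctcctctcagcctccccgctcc
Ehmt2, chr17:34898266-34898468, plus strand: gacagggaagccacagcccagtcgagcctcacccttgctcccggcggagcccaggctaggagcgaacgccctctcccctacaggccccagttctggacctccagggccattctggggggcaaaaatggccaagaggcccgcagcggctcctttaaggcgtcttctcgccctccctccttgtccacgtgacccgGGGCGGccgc

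The Suv39h1 stretch held 11 CpG dinucleotides at 51.6% G and C, the Suv39h2 stretch 22 at 67.8% and the Ehmt2 stretch 13 at 68%. Of all promoter windows in the same position, 64.4%, 92% and 72.9% had fewer CpG dinucleotides, in that order of genes. Suv39h1 held 2 matches to CCAAT, a motif found in 33.8% of the windows, and 1 to GGGCGG, found in 32.7%. Suv39h2 held 2 matches to GGGCGG, found in 25.6% of the windows, and 1 to TGACGTCA, found in 0.877%. Ehmt2 held 1 match to GGGCGG, found in 30.7%, and no stretch held TATAAA. These matches describe letters in the windows only, and binding was not measured.

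Averaged over the 12 libraries, Ehmt2 had the highest level of the 7 genes at 55.4 FPKM, followed by Setdb1 at 22.3, Ehmt1 at 16.1, Prdm2 at 11.5, Suv39h1 at 8.80, Suv39h2 at 4.76 and Setdb2 at 4.26 FPKM. Ehmt2 alone held 39% to 52.3% of the summed FPKM of the set in a library. Ehmt2 lay above 89.8% of the 13109 genes tested in mean level and Setdb2 above 30.9%. The genes differed widely in how much they moved. The highest group mean was 3.595 times the lowest for Suv39h2, 2.25 times for Suv39h1, 1.49 times for Ehmt2 and 1.40 times for Setdb2, but 1.27 times for Setdb1, 1.13 times for Ehmt1 and 1.096 times for Prdm2. On the log2(FPKM + 1) scale, 1.7% of tested genes had a wider range of group means than Suv39h2 and 98.1% a wider one than Prdm2. The hairpins target Suv39h1 and Suv39h2, so the range of these genes is in part set by the design.

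**Figure D1:**
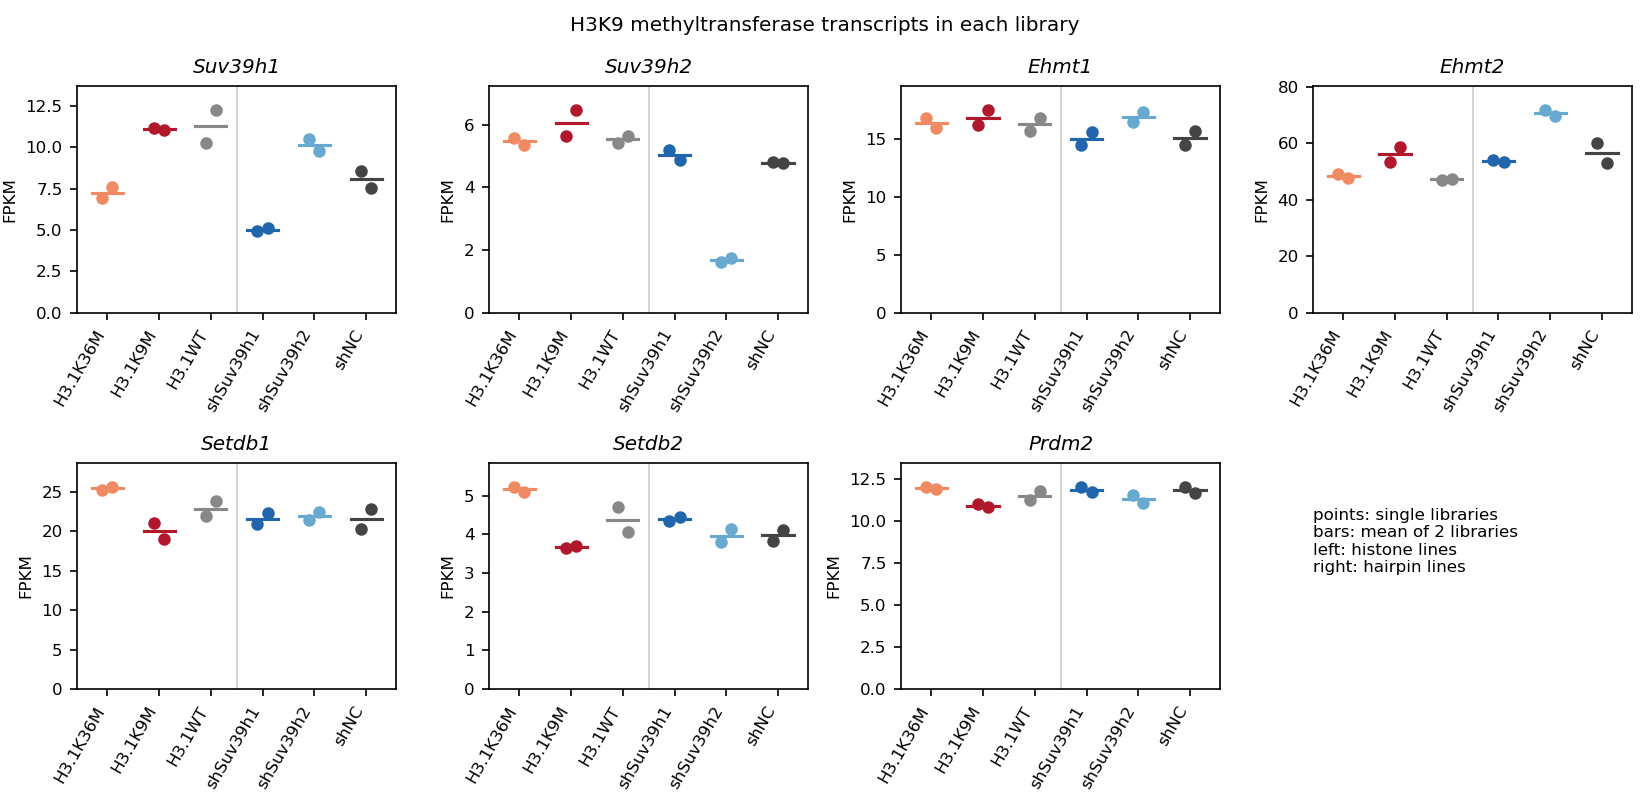
FPKM of each of the 7 genes (vertical axis, starting at 0) in the 12 libraries, with groups along the horizontal axis, points for single libraries and bars for the mean of 2. Suv39h2 sits lowest in both shSuv39h2 libraries, Suv39h1 lowest in both shSuv39h1 libraries, and Ehmt2 highest in both shSuv39h2 libraries, while Prdm2 stays between 10.79 and 12.02 FPKM.

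Suv39h1 lies on chromosome X (GRCm38, 8061171 to 8074760, minus strand) and its coding transcripts have up to 6 exons. It stood at 4.91 and 5.10 FPKM in the shSuv39h1 libraries, 10.51 and 9.74 FPKM in shSuv39h2 and 8.58 and 7.52 FPKM in shNC. In the histone lines it stood at 6.92 and 7.58 FPKM in H3.1K36M, 11.2 and 11.02 FPKM in H3.1K9M and 10.3 and 12.2 FPKM in H3.1WT. The shSuv39h1 libraries were the lowest of the 12 and did not overlap any other group, and the H3.1K36M libraries came next, overlapping shNC alone. From high to low the groups ran H3.1WT, H3.1K9M, shSuv39h2, shNC, H3.1K36M and shSuv39h1, and the neighbours H3.1WT and H3.1K9M overlapped, as did shNC and H3.1K36M. The sources used here do not say whether the histone and hairpin libraries were scaled together, so an order across both is a description.

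Suv39h2 lies on chromosome 2 (3455815 to 3475031, minus strand), also with up to 6 exons. It stood at 5.18 and 4.86 FPKM in shSuv39h1, 1.61 and 1.76 FPKM in shSuv39h2 and 4.797 and 4.782 FPKM in shNC. In the histone lines it stood at 5.59 and 5.36 FPKM in H3.1K36M, 5.64 and 6.46 FPKM in H3.1K9M and 5.43 and 5.63 FPKM in H3.1WT. The shSuv39h2 libraries stood far below the other 10, which spanned 4.78 to 6.46 FPKM. H3.1WT and H3.1K36M overlapped, while the other neighbours in the order of group means did not.

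The knockdowns were checked first on their own targets. With shSuv39h1, Suv39h1 was at 62.2% of shNC, and the limma log2 fold change of −0.59 (SE 0.105, 95% interval −0.82 to −0.35) missed the threshold of 0.05 after adjustment over all 13109 genes (adjusted p = 0.0877). With shSuv39h2, Suv39h2 was at 35.1% of shNC and fell by 1.11 on the log2 scale (SE 0.0936, limma adjusted p = 0.000304). Set directly against each other, the hairpin lines differed in both genes. Suv39h1 was 49.5% as high in shSuv39h1 as in shSuv39h2 (log2 fold change −0.89, SE 0.105, limma adjusted p = 0.00296), and Suv39h2 was 2.98 times as high (log2 fold change 1.17, SE 0.0936, adjusted p = 0.000514). These comparisons share libraries with those against shNC.

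Each paralog was also read where the other was targeted. Suv39h1 was 1.26 times as high in shSuv39h2 as in shNC without overlap between the libraries, but the log2 fold change of 0.30 (95% interval 0.07 to 0.53) did not pass in limma (adjusted p = 0.105). Suv39h2 was 1.05 times as high in shSuv39h1 as in shNC (log2 fold change 0.06, 95% interval −0.15 to 0.27, limma adjusted p = 0.884). The sum of both transcripts was 10.1 and 9.96 FPKM in shSuv39h1, 12.1 and 11.5 FPKM in shSuv39h2 and 13.4 and 12.3 FPKM in shNC. The summed level was thus lowest with shSuv39h1, although the targeted gene lost a larger share of its own transcript with shSuv39h2. The make-up differed more than the sum. The ratio of Suv39h1 to Suv39h2 averaged 0.999 ± 0.0725 in shSuv39h1, 6.04 ± 0.696 in shSuv39h2 and 1.68 ± 0.151 in shNC (SD, n = 2 each).

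**Figure D2:**
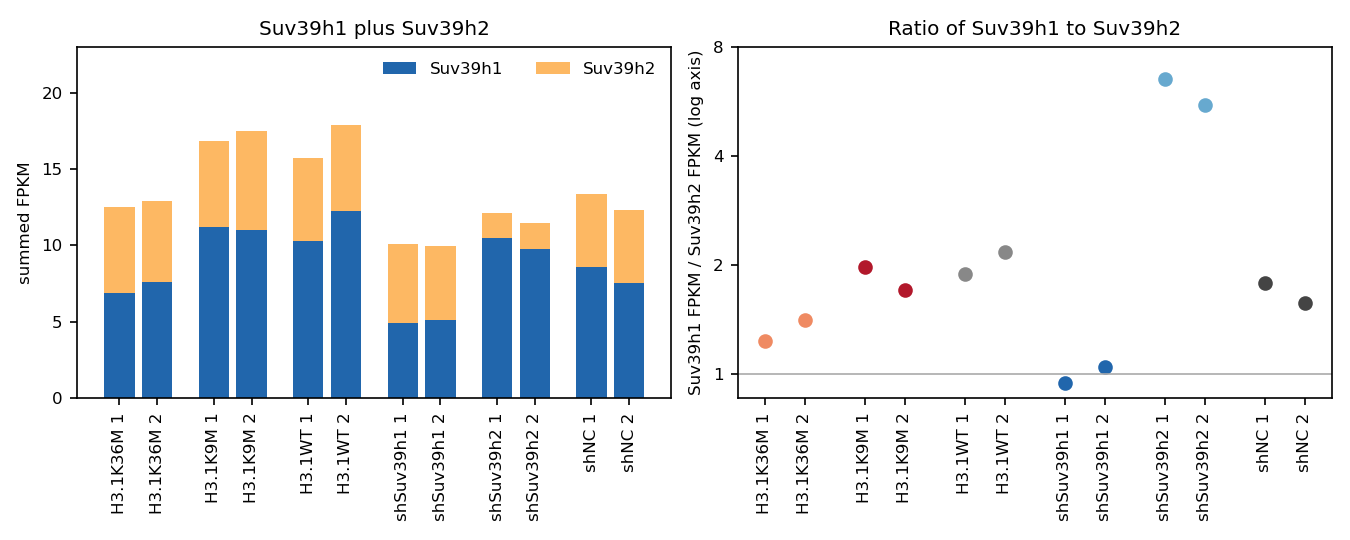
Left, FPKM of Suv39h1 and Suv39h2 stacked for each library; right, the ratio of Suv39h1 to Suv39h2 FPKM on a log axis, with 1 point per library. The shSuv39h2 libraries have the highest ratios, 6.53 and 5.55, and the shSuv39h1 libraries the lowest, 0.948 and 1.05.

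Suv39h2 shares 357 exonic bases with Dclre1c, a gene for a DNA repair nuclease on the opposite strand (GENCODE M21), and the sources used here do not say whether counting used strand. Dclre1c stood at 7.47 and 7.497 FPKM in shSuv39h2 and at 9.67 and 10.9 FPKM in shNC. It fell by 0.41 on the log2 scale (SE 0.0946, limma adjusted p = 0.0257), and its libraries did not overlap between these groups. Dclre1c was also higher in shSuv39h1 than in shSuv39h2 (log2 fold change 0.45, limma adjusted p = 0.0258). It was higher in H3.1K36M than in H3.1K9M as well (0.36, adjusted p = 0.0484), where Suv39h2 stood at −0.12 and did not pass. The part of shared reads in either gene's value was not tested. The same limit touches Suv39h1, which shares 767 exonic bases with the antisense gene Gm14820, and Setdb1, which shares 249 with Gm37500 and 75 with Cers2, all on the opposite strand. Suv39h2 also shares 83 with Gm13184. Of these other genes Cers2 alone was measured here, and it passed in none of the 6 comparisons by limma (adjusted p = 0.259 to 0.777).

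Ehmt2 (chromosome 17, 34898469 to 34914052, plus strand) was the member outside the Suv39h pair that passed in a knockdown. It stood at 54.2 and 53.2 FPKM in shSuv39h1, 71.6 and 69.5 FPKM in shSuv39h2 and 60.2 and 53.1 FPKM in shNC. The shSuv39h2 libraries were the highest of the 12, and those of shSuv39h1 and shNC overlapped. Ehmt2 rose 1.25-fold in shSuv39h2 over shNC (log2 fold change 0.31, SE 0.0805, limma adjusted p = 0.0381) and was 76.1% as high in shSuv39h1 as in shSuv39h2 (log2 fold change −0.39, limma adjusted p = 0.0244). In shSuv39h1 against shNC the log2 fold change was −0.07 (95% interval −0.25 to 0.11, adjusted p = 0.806). The call against shNC rests on the choice of fit, since 12 of 21 alternatives put its adjusted p above 0.05, up to 0.167, with log2 fold changes between 0.23 and 0.40. It was lost without shSuv39h2 replicate 1 (adjusted p = 0.167) or 2 (0.131), without shNC replicate 2 (0.110), without either library of shSuv39h1, H3.1WT or H3.1K36M (0.0650 to 0.0772), with quantile normalization (0.112), with array quality weights (0.0514) and in a fit over the hairpin lines alone (0.0860). The call between the hairpin lines was lost without either library of shSuv39h1, shSuv39h2 or H3.1K36M, at adjusted p values of 0.0571 to 0.164 in limma, and in a fit over the hairpin lines alone (0.0694).

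In the histone lines Ehmt2 stood at 49 and 47.7 FPKM in H3.1K36M, 53.4 and 58.6 FPKM in H3.1K9M and 47.1 and 47.4 FPKM in H3.1WT. It was 1.18 times as high in H3.1K9M as in H3.1WT without overlap, a log2 fold change of 0.24 (95% interval 0.06 to 0.42) that did not pass (limma adjusted p = 0.327). Ehmt1 (chromosome 2, 24789928 to 24919614), whose protein pairs with that of Ehmt2, moved little. Its 12 libraries lay between 14.5 and 17.5 FPKM, and none of its 6 tests passed, with adjusted p values of 0.279 to 0.997. Ehmt1 in shSuv39h2 was at 112.3% of its level in shNC (16.5 and 17.4 FPKM against 14.5 and 15.7 FPKM; adjusted p = 0.279). The ratio of Ehmt2 to Ehmt1 averaged 3.57 ± 0.238 in shSuv39h1, 4.17 ± 0.243 in shSuv39h2 and 3.77 ± 0.539 in shNC (SD, n = 2 each); the shNC ratios, 4.15 and 3.39, reached into the range of shSuv39h2.

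Setdb1 (chromosome 3, 95323525 to 95357202) stood at 25.3 and 25.7 FPKM in H3.1K36M, 21 and 19 FPKM in H3.1K9M and 22 and 23.8 FPKM in H3.1WT. Setdb2 (chromosome 14, 59402009 to 59440884) stood at 5.23 and 5.10 FPKM in H3.1K36M, 3.64 and 3.71 FPKM in H3.1K9M and 4.70 and 4.06 FPKM in H3.1WT. For both genes the H3.1K36M libraries were the highest of the 12 and the mean of H3.1K9M the lowest of the 6 groups, with H3.1WT between them. Neither passed against H3.1WT, where adjusted p values were 0.375 and 0.271 in H3.1K36M and 0.470 and 0.471 in H3.1K9M. Set directly against H3.1K9M, Setdb1 was 1.27 times as high in H3.1K36M (log2 fold change 0.33, SE 0.0886, limma adjusted p = 0.0482) and Setdb2 1.40 times (log2 fold change 0.40, SE 0.0951, adjusted p = 0.0332). Each of these calls held in 8 of 21 alternatives, and adjusted p reached 0.272 for Setdb1 and 0.222 for Setdb2 when an H3.1K36M library was left out. The Setdb1 call was also lost without H3.1K9M replicate 2 (adjusted p = 0.113) and without any single library of H3.1WT, shSuv39h1 or shSuv39h2 (0.0706 to 0.0821). It was lost as well with quantile normalization (0.0523), median-of-ratios scaling (0.0865), array quality weights (0.115) and a fit over the histone lines alone (0.0954). The Setdb2 call was also lost without either library of H3.1K9M or shSuv39h1 or without shSuv39h2 replicate 2 (adjusted p = 0.0503 to 0.0649). No filter or a filter of 5 FPKM, both scalings, array quality weights and a fit over the histone lines alone also ended it (adjusted p = 0.0541 to 0.117).

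In the hairpin lines Setdb1 stood at 21 and 22.3 FPKM in shSuv39h1, 21.4 and 22.5 FPKM in shSuv39h2 and 20.3 and 22.8 FPKM in shNC. All of these overlapped. Setdb2 was at 4.33 and 4.44 FPKM in shSuv39h1, 3.795 and 4.13 FPKM in shSuv39h2 and 3.84 and 4.12 FPKM in shNC. The shSuv39h1 libraries lay above the rest without passing (log2 fold change 0.11 against shNC, 95% interval −0.10 to 0.33, limma adjusted p = 0.735). Prdm2 (chromosome 4, 143107391 to 143212995) spanned 10.79 to 12.02 FPKM over the 12 libraries. Its lowest group was H3.1K9M, at 11.01 and 10.79 FPKM, against 11.2 and 11.8 FPKM in H3.1WT (log2 fold change −0.07, 95% interval −0.24 to 0.10, adjusted p = 0.743), and none of its 6 tests passed.

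**Figure D3:**
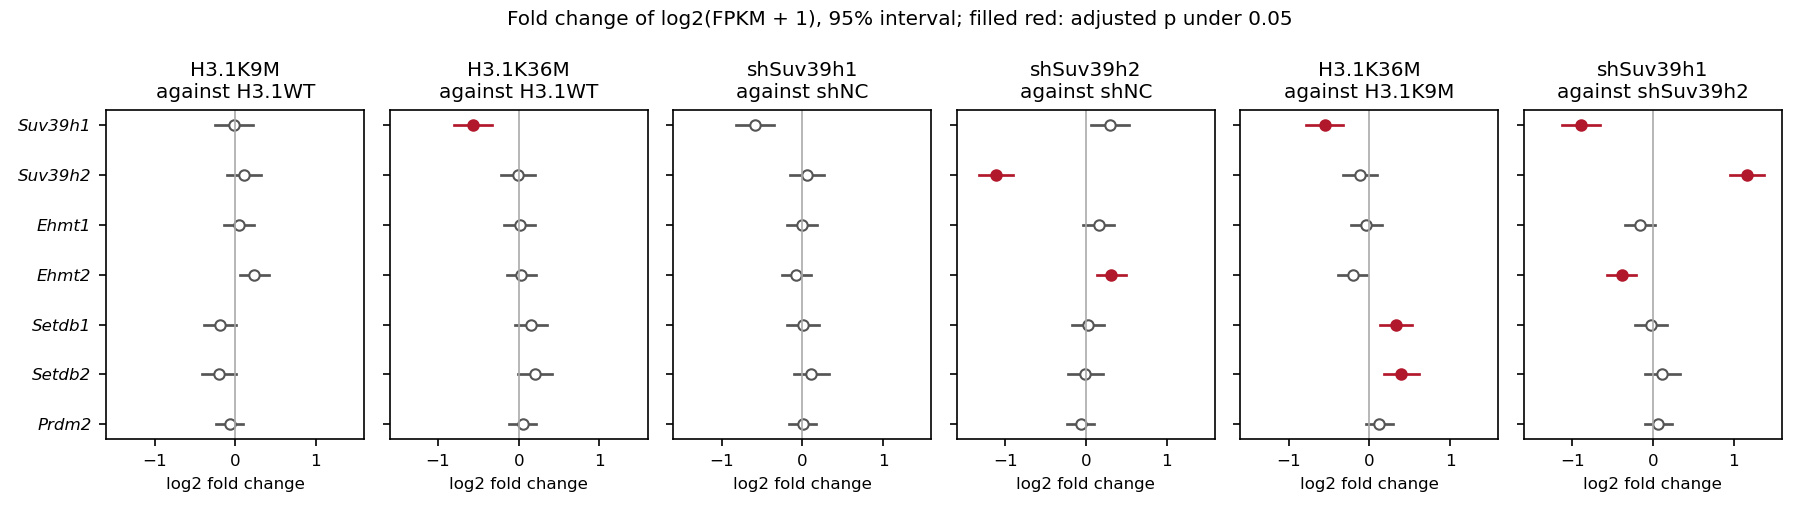
log2 fold change of FPKM + 1 (horizontal axis) for each of the 7 genes in the 6 comparisons, first-named group over second, with 95% intervals from limma. Filled red points passed at an adjusted p under 0.05: Suv39h1 in 3 comparisons, Suv39h2 in 2, Ehmt2 in 2, and Setdb1 and Setdb2 in 1 each.

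By comparison, the counts of members past the threshold were small. With H3.1K9M, the histone aimed at the mark these enzymes write, none of the 7 genes passed against H3.1WT by limma (0.313% of all tested genes did). Unadjusted limma p was under 0.05 for 1 of 7, Ehmt2, beside 1465 of all 13109 tested genes. The median log2 fold change of the 7 was −0.01, as was that of all tested genes. The libraries of 5 of the 7 did not overlap, against 35.2% of all tested genes. With H3.1K36M, Suv39h1 fell to 64.4% of H3.1WT, and no other member passed (4.84% of all tested genes did, 1.74% lower). The libraries of 5 of 7 members did not overlap, beside 65.9% of all tested genes. Its log2 fold change was −0.57 (SE 0.105, limma adjusted p = 0.0163), with a similar value of −0.55 (adjusted p = 0.0127) against H3.1K9M. The comparisons of H3.1K36M with H3.1WT and with H3.1K9M share the H3.1K36M libraries.

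Feeder markers lay higher by their median in H3.1K36M than in H3.1WT, and also in H3.1K9M than in H3.1WT, where the log2 fold change of Suv39h1 was −0.01. The median log2 fold change of the 23 tested markers was 0.78 and 0.75 in these comparisons, in that order. Unadjusted limma p was under 0.05 for 14 and 10 of them, beside 2722 and 1465 of all 13109 tested genes. In H3.1K36M against H3.1K9M the median was 0.03, with 2 under 0.05 (3044 of all 13109 tested genes were), and Suv39h1 stood at −0.55. The 24 markers summed to 1525 and 1476 FPKM in H3.1K36M, 2089 and 1148 FPKM in H3.1K9M and 697 and 1164 FPKM in H3.1WT. The sum of H3.1K9M replicate 2 thus lay between those of the H3.1WT libraries. None of the 23 tested passed in H3.1K9M against H3.1WT (0.313% of all tested genes did). In H3.1K36M over H3.1WT 3 of 23 rose, Col3a1, Col6a2 and Postn (4.84% of all tested genes passed there). Of the 10 stem cell markers Nanog rose there as well. Tdgf1 (log2 fold change −0.44), Pou5f1 (−0.30) and Lin28a (−0.07) lay lower there without passing. After adding the mean feeder marker level to the fit, Suv39h1 stood at −0.62 on the log2 scale in H3.1K36M against H3.1WT (adjusted p = 0.0333 in limma). That level differed between the groups itself, at 4.64 and 4.64 in H3.1K36M and 3.53 and 4.21 in H3.1WT (mean log2). The fit therefore cannot fully separate it from the group. The part of feeder content in the Suv39h1 values was not tested. In bulk RNA fewer cells of a type and less RNA per cell cannot be told apart. The Suv39h1 call did not hold without H3.1K36M replicate 1 (adjusted p = 0.181), without H3.1K36M replicate 2 (0.112), without H3.1WT replicate 2 (0.114) or in a fit over the histone lines alone (0.0757), and its log2 fold change stayed between −0.68 and −0.45. Against H3.1K9M it did not hold without H3.1K36M replicate 1 (adjusted p = 0.135) or 2 (0.0765), with array quality weights (0.0569) or in a fit over the histone lines alone (0.0523).

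Of the hairpin comparisons, shSuv39h1 against shNC had none of the 7 genes past the threshold by limma (0.145% of all tested genes passed). Suv39h1 was the 1 member with an unadjusted p under 0.05, beside 1384 of all 13109 tested genes. The libraries of 3 of 7 did not overlap, beside 39.4% of all tested genes. In shSuv39h2 against shNC, 1 of 7 rose (Ehmt2) and 1 fell (Suv39h2), where 10.0% of all tested genes passed, 5.35% higher and 4.69% lower. Without overlap were 5 of 7, beside 50.8% of all tested genes. Directly compared, shSuv39h1 against shSuv39h2 had 3 of 7 past the threshold (6.56% of all tested genes, 4.56% higher and 2.00% lower), with Suv39h2 higher and Suv39h1 and Ehmt2 lower. Suv39h1 and Suv39h2 are the hairpin targets, so their results in the hairpin comparisons were in part set by the design. Ehmt2 was the only called member there that no hairpin targeted. H3.1K36M against H3.1K9M also had 3 of 7 (8.24% of all tested genes, 5.57% higher and 2.67% lower), with Setdb1 and Setdb2 higher and Suv39h1 lower. In both of these comparisons 6 of 7 members did not overlap, beside 58.7% of all tested genes for the hairpins and 52.0% for the histones. Median log2 fold changes of the set were −0.02 and −0.04, beside −0.0012 and 0.03 for all tested genes. The feeder markers summed to 839 and 556 FPKM in shSuv39h1, 1141 and 889 FPKM in shSuv39h2 and 813 and 1070 FPKM in shNC, and 1 of 23 tested (Thy1) fell in shSuv39h2 against shNC. Of the 10 stem cell markers, Klf4, Pou5f1 and Utf1 rose in shSuv39h2 over shNC, while Zfp42 (log2 fold change −0.20) and Nanog (−0.12) lay lower without passing. Esrrb, Klf4, Nanog and Zfp42 rose in H3.1K36M over H3.1K9M. Tdgf1 (log2 fold change −0.30), Lin28a (−0.20), Utf1 (−0.10) and Pou5f1 (−0.10) lay lower there without passing. The part of these markers in the member values was not tested.

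Other genes of the pathway were read from lists of 14 partners and readers of H3K9 methylation and 11 erasers. Of the partners and readers none passed with H3.1K9M, with H3.1K36M or with shSuv39h1 against its control, while 1 rose and 2 fell with shSuv39h2, where 10.0% of all tested genes passed (5.35% higher and 4.69% lower). Unadjusted p was under 0.05 for 2, 0 and 1 of the 14 in the comparisons without a call, in that order. Of all 13109 tested genes 0.313%, 4.84% and 0.145% passed in them, and 1465, 2722 and 1384 had an unadjusted p under 0.05. In shSuv39h2 against shNC the median log2 fold change of the 14 was 0.05, beside 0.04 for all tested genes. Atf7ip, whose protein stabilises Setdb1, fell to 15.1 ± 0.435 FPKM in shSuv39h2, against 18.6 ± 0.615 FPKM in shNC (SD, n = 2 each; limma adjusted p = 0.0466). Its paralog Atf7ip2 fell to 2.75 ± 0.214 FPKM in shSuv39h2, against 4.10 ± 0.0173 FPKM in shNC (adjusted p = 0.0196), and it was 1.59 times as high in shSuv39h1 as in shSuv39h2 (adjusted p = 0.0163). Atf7ip2 was the 1 of 14 that passed between the hairpin lines, where 6.56% of all tested genes did. D14Abb1e, now called Tasor and the core of the HUSH silencing complex, rose to 9.30 ± 0.868 FPKM in shSuv39h2, against 5.69 ± 1.90 FPKM in shNC (adjusted p = 0.0381). It averaged 9.39 ± 0.676 FPKM in shSuv39h1, where it did not pass (adjusted p = 0.201), and the shNC libraries themselves were far apart. In H3.1K9M the genes with the smallest p were Atf7ip2, at 3.14 ± 0.159 FPKM against 4.03 ± 0.111 FPKM in H3.1WT (adjusted p = 0.332), and Atf7ip, at 18.8 ± 0.575 FPKM against 21.95 ± 0.644 FPKM (adjusted p = 0.355). In H3.1K36M they were D14Abb1e, at 10.35 FPKM against 8.60 FPKM in H3.1WT (adjusted p = 0.439), and Cbx1, which encodes a reader of the HP1 family, at 108.6 FPKM against 126.5 FPKM (adjusted p = 0.440). With shSuv39h1, Atf7ip averaged 16.9 FPKM against 18.6 FPKM in shNC (adjusted p = 0.604). No partner or reader passed between H3.1K36M and H3.1K9M, where 8.24% of all tested genes did. Unadjusted p was under 0.05 there for 0 of 14, beside 3044 of all 13109 tested genes. Atf7ip2 averaged 3.799 FPKM in H3.1K36M and 3.14 FPKM in H3.1K9M (limma adjusted p = 0.222), and Trim28 averaged 564 and 469 FPKM in the same groups (adjusted p = 0.278).

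Of the 10 erasers tested, 2 rose in shSuv39h2 over shNC and none fell, and 1 fell in H3.1K36M against H3.1WT. Of all tested genes 10.0% passed in shSuv39h2 against shNC (5.35% higher), and 4.84% in H3.1K36M against H3.1WT (1.74% lower). Jmjd1c, of the Kdm3 family of H3K9 demethylases, moved in opposite directions in these comparisons. It fell to 14.6 ± 0.18 FPKM in H3.1K36M, against 19.8 ± 0.706 FPKM in H3.1WT (SD, n = 2 each; limma adjusted p = 0.0171), and stood at 67% of its H3.1K9M level (adjusted p = 0.00286). Jmjd1c was the 1 eraser of 10 that passed between H3.1K36M and H3.1K9M, where 8.24% of all tested genes did. It rose to 23.3 ± 0.646 FPKM in shSuv39h2, against 17.6 ± 0.69 FPKM in shNC (adjusted p = 0.0158). Kdm4a, a demethylase of both H3K9 and H3K36, rose to 27.2 ± 0.0368 FPKM in shSuv39h2, against 20.6 ± 0.718 FPKM in shNC (adjusted p = 0.0165). None of the erasers passed with H3.1K9M or with shSuv39h1 against its control by limma, with unadjusted p under 0.05 for 0 and 1 of the 10. Of all 13109 tested genes 0.313% and 0.145% passed there, and 1465 and 1384 had an unadjusted p under 0.05. In H3.1K9M, Kdm3a averaged 27.7 FPKM against 31.2 FPKM in H3.1WT (adjusted p = 0.535) and Kdm1a 86.0 FPKM against 99.2 FPKM (adjusted p = 0.536). In shSuv39h1, Jmjd1c averaged 21.1 FPKM against 17.6 FPKM in shNC (adjusted p = 0.311) and Kdm4a 23.2 FPKM against 20.6 FPKM (adjusted p = 0.525). Between shSuv39h1 and shSuv39h2 no eraser passed, where 6.56% of all tested genes did. Unadjusted p was under 0.05 there for 1 of 10, beside 2839 of all 13109 tested genes. Kdm4a averaged 23.2 FPKM in shSuv39h1 and 27.2 FPKM in shSuv39h2 (limma adjusted p = 0.138), and Kdm4c 24.7 and 32.7 FPKM (adjusted p = 0.320). The median log2 fold change of the erasers was 0.19 in shSuv39h2 against shNC and −0.11 in H3.1K36M against H3.1WT, beside 0.04 and 0.03 for all tested genes. Kdm4d was not tested, at a highest value of 0.324 FPKM. Mecom and Prdm16, for which H3K9 methyltransferase activity has also been proposed, peaked at 0.401 and 0.864 FPKM and were not tested either.

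The 7 methyltransferases of the other targeted residue, H3K36, served for comparison. None of them (Setd2, Nsd1, Whsc1, Whsc1l1, Ash1l, Smyd2 and Setmar) passed in any of the 6 comparisons by limma. Of all tested genes 0.145% to 10.0% passed, depending on the comparison, and for 7 genes a count of none lies near such shares. The smallest adjusted p by limma was 0.136, for Nsd1 in shSuv39h2 (14.8 ± 1.11 FPKM against 11.5 ± 1.49 FPKM in shNC). Setd2, which writes H3K36 trimethylation, stood at 18.6 ± 0.389 FPKM in H3.1K36M and 16.7 ± 0.284 FPKM in H3.1WT (adjusted p = 0.294). Unadjusted p was under 0.05 for 1 of 7 in shSuv39h2 against shNC and for 1 of 7, Setd2, in H3.1K36M against H3.1K9M (18.6 FPKM and 16.2 FPKM, adjusted p = 0.151), and for none in the other comparisons. Of all 13109 tested genes it was under 0.05 for 3386 and 3044 in these comparisons, in that order, and for 1384 to 2839 in the others. Nsd1 averaged 15.5 FPKM in H3.1K36M, 14.96 FPKM in H3.1K9M and 13.7 FPKM in H3.1WT (adjusted p = 0.482 and 0.736 against H3.1WT), and 13.3 FPKM in shSuv39h1 (adjusted p = 0.665 against shNC). Smyd2 averaged 18.6 FPKM in shSuv39h1, 18.7 FPKM in shSuv39h2 and 22.4 FPKM in shNC (adjusted p = 0.536 and 0.260 against shNC). Ash1l averaged 4.19 FPKM in H3.1K9M against 3.59 FPKM in H3.1WT (adjusted p = 0.725), and 3.62 FPKM in shSuv39h1 against 4.30 FPKM in shSuv39h2 (adjusted p = 0.521). Whsc1 averaged 9.91 FPKM in H3.1K36M against 9.04 FPKM in H3.1K9M (adjusted p = 0.588), and 7.75 FPKM in shSuv39h1 against 8.74 FPKM in shSuv39h2 (adjusted p = 0.567). Whether the H3K9 and H3K36 sets differ was not tested.

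**Figure D4:**
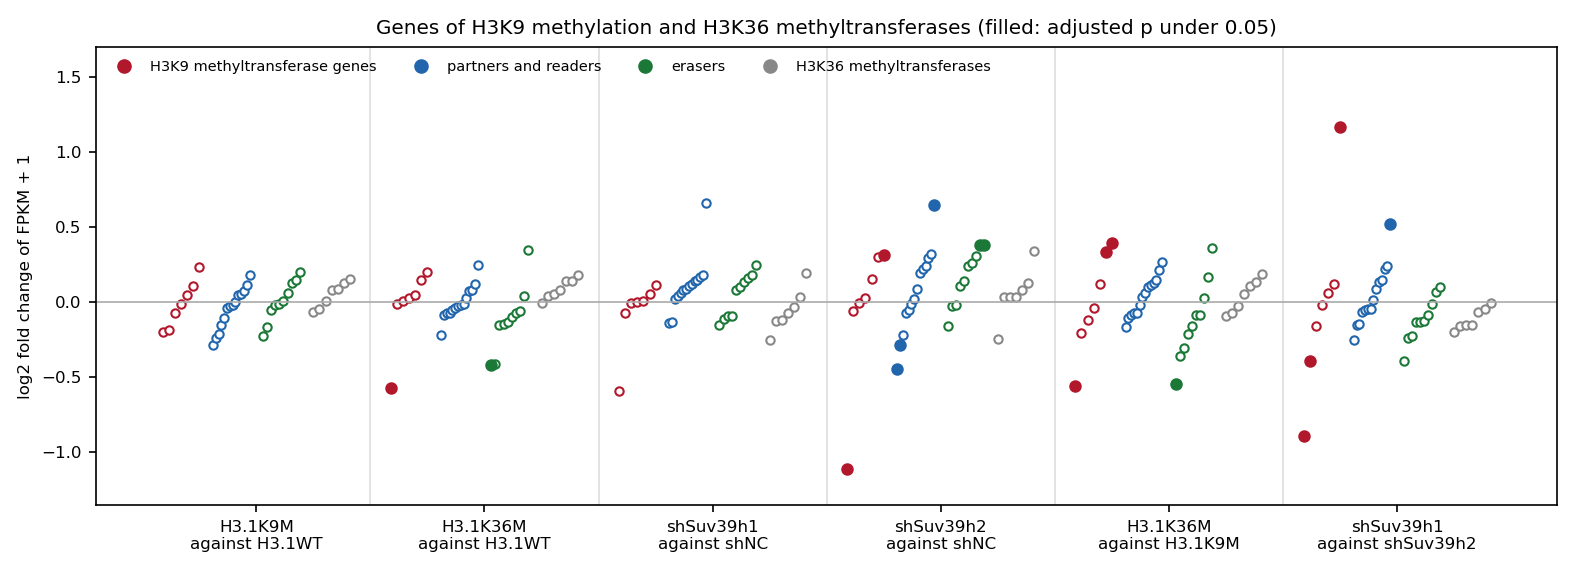
log2 fold change of FPKM + 1 (vertical axis) for the 7 H3K9 methyltransferase genes, 14 partners and readers, 10 tested erasers and 7 H3K36 methyltransferases in the 6 comparisons, 1 point per gene. Filled points passed at an adjusted p under 0.05; they lie mostly in shSuv39h2 against shNC and in the direct comparisons, and no H3K36 methyltransferase is filled.

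The genes whose levels most resembled each member were ranked by Pearson's r of log2(FPKM + 1) over the 12 libraries, among 12359 named genes. These values describe the 12 libraries, which share groups, feeder content and scaling. Being the highest of 12359, they are high in part by selection. For Suv39h1 they were Ebf1 (r = 0.87, Spearman's rho 0.94), Zfp629 (r = 0.86, rho 0.92) and Rcbtb2 (r = 0.82, rho 0.81). Without the 2 shSuv39h1 libraries, which lay farthest from the median, r was 0.84, 0.78 and 0.62. Ebf1 spanned 0.928 to 2.45 FPKM and Zfp629 0.548 to 1.35 FPKM over the 12 libraries, which is low. For Suv39h2 the genes were Larp4, Sfrp2 and Nufip2, at r = 0.97, 0.96 and 0.96, but without the 2 shSuv39h2 libraries r fell to 0.65, 0.62 and 0.62, so these likenesses rest largely on those libraries. Larp4 stood at 14.7 ± 0.676 FPKM in shSuv39h2 and 22.2 ± 0.68 FPKM in shNC.

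For Ehmt2 the most similar genes were Sipa1 (r = 0.96, rho 0.86), Aplp1 (r = 0.95, rho 0.91) and Eno2 (r = 0.94, rho 0.98), and r stayed at 0.86, 0.89 and 0.92 without the 2 shSuv39h2 libraries. For Setdb1 they were Taf6l, Scfd2 and Fancm (r = 0.96, 0.95 and 0.94), and for Setdb2 Mageb16, Taf4b and Atp5o (r = 0.95, 0.93 and 0.93). Mageb16 followed the order seen for Setdb2, at 26.0 ± 0.0392 FPKM in H3.1K36M, 16 ± 0.363 FPKM in H3.1K9M and 21.8 ± 0.235 FPKM in H3.1WT. For Ehmt1 they were Vars, Ppp1cb and Sox13 (r = 0.91, 0.90 and 0.90), and for Prdm2, whose range was narrow, Galnt16, Ass1 and Nfam1 (r = 0.87, 0.86 and 0.85). Galnt16 spanned 0.581 to 1.95 FPKM and Nfam1 0.518 to 1.13 FPKM, which is low. Without the 2 farthest libraries of each member, r was 0.91 to 0.97 for Setdb1, 0.86 to 0.91 for Setdb2, 0.74 to 0.88 for Ehmt1 and 0.76 to 0.87 for Prdm2. Among the members themselves, the closest to Setdb2 was Setdb1 (r = 0.78, rho 0.65), and r was 0.49 without the 2 H3.1K36M libraries. The closest member to Suv39h2 was Setdb2 at r = 0.23, but rho was −0.09 and r was −0.15 without the 2 shSuv39h2 libraries. The closest member to Suv39h1 was Ehmt1 at r = 0.58, and r was 0.34 without the 2 shSuv39h1 libraries.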

How the data were processed

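The 12 files hold 1 FPKM value per gene symbol, and these FPKM values were made by the authors and used as deposited. The unit was read from the values, since the headers do not name it. Per the submitters' processing notes the tools were Cuffdiff 2.2.1 and TopHat2 2.0.13 with mm10, and the sources used here give no roles, settings, annotation or scaling between libraries. The labels' protocols name both a NEBNext Ultra and a TruSeq kit. Tests covered the 13109 genes that reached 1 FPKM in 2 or more libraries, including all 7 members. limma 3.58.1 (R 4.3.3) was fitted on log2(FPKM + 1) with a mean for each of 6 groups over 12 libraries (6 residual degrees of freedom, prior 3.66, with an intensity trend), two-sided, with Benjamini-Hochberg adjustment over all tested genes. Fold changes on this scale understate changes of low genes; percentages and folds named as such are ratios of mean FPKM. Depth came from steps of low values in genes with a single transcript, with the best of a range of depths taken for each library. At that depth 42.1% to 48.5% of low values were whole fragments within 0.1, where 20% would be by chance at a single depth. The best of many depths was taken, so the depth is a rough estimate. Fragment numbers per gene assume the longest coding transcript. The fit was tested on simulated data with planted log2 changes of 1 and 2 and the same spread in every group. Smaller changes, like most member calls here, and groups of unequal spread were not tested in this way.

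The members and lists were chosen with earlier results of these data known. All members are named throughout; from the other lists up to 4 genes past the threshold, or else the 2 with the smallest p, are named per comparison, and the 3 most similar genes per member. Alternatives were another pseudocount, filter, scaling, weighting, a replicate block, a fit per arm (histone or hairpin lines), each library left out and, chosen after seeing the data, a feeder covariate. Gene positions are from GENCODE M21 (GRCm38, the same assembly as mm10).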

Additional observations from a re-analysis of the deposited data

How the results depend on the processing

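Over 21 alternatives, the 42 member fold changes gave 882 values, of which none crossed to a call in the other direction. Most of the 42 were not called in the main fit, and in 53 of the values a call of the main fit was lost. Suv39h2 passed in all 21 for shSuv39h2 against shNC, at a log2 fold change of −1.15 to −1.07 with 1 library left out and −1.46 to −1.08 otherwise, and Suv39h1 in none for shSuv39h1 against shNC, at −0.67 to −0.50. No member was called in any alternative for H3.1K9M against H3.1WT. For H3.1K36M against H3.1WT the count of 1 became 0 in a fit over the same arm and was 0 to 1 with 1 library left out. For shSuv39h2 against shNC the count of 2 became 1 with quantile normalization, array quality weights or the fit over the same arm, and 1 to 2 with 1 library left out. For H3.1K36M against H3.1K9M the count of 3 became 1 with quantile normalization or median-of-ratios scaling, 0 with array quality weights or the same arm, and 0 to 3 with 1 library left out. For shSuv39h1 against shSuv39h2 it was 2 to 3. The cause of these changes was not tested. Correlations of replicate differences ran from −0.38 to 0.38 between groups of an arm, and up to 0.52 over all groups. They had no common sign and cannot settle whether replicate numbers pair the libraries. With a replicate block the counts of called members stayed at 0, 1, 0, 2, 3 and 3. Over all genes the numbers called were 41 (range 1 to 696), 634 (58 to 2983), 19 (0 to 59), 1316 (358 to 2194), 1080 (209 to 1944) and 860 (76 to 2103), in the order H3.1K9M and H3.1K36M against H3.1WT, shSuv39h1 and shSuv39h2 against shNC, H3.1K36M against H3.1K9M and shSuv39h1 against shSuv39h2. Scaling moved the split of higher and lower calls: 406 and 228 for H3.1K36M against H3.1WT became 317 and 273 with quantile normalization. In shSuv39h2 against shNC, 701 and 615 became 554 and 653 with it. In H3.1K36M against H3.1K9M, 730 and 350 became 551 and 442 with median-of-ratios scaling, and in shSuv39h1 against shNC 11 and 8 became 5 and 8. In shSuv39h1 against shSuv39h2 they were 598 and 262, and with that scaling 519 and 348. For H3.1K9M against H3.1WT, where Suv39h1 was not called, its log2 fold change was 0.10 without H3.1WT replicate 2, and that of Ehmt2 in shSuv39h1 against shNC was 0.02 without shNC replicate 1.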
